A study of Mus musculus with 8 samples.

Results

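Sox2, on mouse chromosome 3, was examined together with its surroundings in a list of accessible chromatin regions called the atlas. The members are all atlas regions that share at least 1 bp with the Sox2 gene span extended by 200 kb on both sides, chr3:34449995-34852461 in the build GRCm38 (mm10). This window of 402 kb held 24 of the 76872 atlas regions. The regions came from ATAC-seq, in which the transposase Tn5 cuts and tags open DNA, on induced pluripotent stem cells from mouse. The cells were a clonal line with FUCCI2, fluorescent reporters that mark the phase of the cell cycle. The series had 8 libraries of 50000 cells each, 2 replicates in each of 4 groups. Cells shaken off in mitosis after 6 h in nocodazole at 200 ng/ml, a drug that blocks the spindle, formed the 0 h group, and such cells released into fresh medium formed the 1 h and 3 h groups. Asynchronous cells were left untreated. In every group the medium held serum, the cytokine LIF and inhibitors of the kinases MEK and GSK3, over a layer of irradiated feeder cells. Any chromatin of those feeders in the preparations cannot be told apart in the atlas. The line is a clone, so variation between clones was not sampled, and whether A and B replicates were grown apart is not stated in the labels.

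The deposited file is 1 list for the whole series, with a position for each region and no value for any library. How the libraries were merged into it is not stated, so a region in it may have been accessible in any of the 4 groups. None of the values below says in which group, and none is a change after mitosis. The depth of the libraries is unknown. Regions of 1 locus are not replicates of each other, so the values are given as descriptions, beside the same measure at other genes, with no p-value.

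SOX2 is a transcription factor with an HMG box that binds DNA together with OCT4, the product of Pou5f1, and keeps pluripotent cells from differentiating. Its gene is short and has a single exon. It lies inside the span of Sox2ot, a long non-coding RNA gene, and far from other coding genes. In mouse embryonic stem cells its transcription depends largely on a distant enhancer cluster about 100 kb downstream, known as the Sox2 control region, whose deletion lowers expression of Sox2 on the same chromosome. Further enhancers near the gene, SRR1 upstream and SRR2 downstream, were described earlier.

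The sequence before the Sox2 start is shown because all of it lay inside the widest region of the window. It is the 250 bases upstream of the RefSeq start, chr3:34649745-34649994 on the plus strand of GRCm38.p6, and capitals mark motif matches found in it.
Sox2 promoter: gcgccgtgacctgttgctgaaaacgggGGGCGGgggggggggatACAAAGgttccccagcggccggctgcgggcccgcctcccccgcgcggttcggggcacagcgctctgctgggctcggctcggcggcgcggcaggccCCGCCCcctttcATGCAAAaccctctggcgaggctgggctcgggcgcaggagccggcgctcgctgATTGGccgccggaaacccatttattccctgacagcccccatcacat

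Of these 250 bases 72% were G or C, and the sequence held 27 CpG dinucleotides. Over 21262 promoter sequences of protein-coding genes of the same length, the medians were 55.6% G or C (quartiles 47.2 and 64%) and 10 CpG (quartiles 3 and 19). A share of 8.87% of those promoters had at least the G and C content of Sox2, and 11.0% at least its number of CpG. The Sox2 promoter was thus in the GC-rich part of the distribution.

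Matches were sought on both strands for a fixed set of motifs. The GC box GGGCGG, bound by SP and KLF factors, matched 2 times, and 42.6% of all promoters held it. The CCAAT box, CCAAT, matched 1 time on the minus strand, 46 bp before the start, and was held by 35.4% of promoters. The Sox site ACAAAG matched 1 time, and 14.9% of promoters held it. None of these matches overlapped another. The octamer ATTTGCAT, the Oct-Sox composite motif, the Sox site ACAATG, the Klf site GGGNGTGG, the Esrrb site TCAAGGTCA, the STAT site TTCCNGGAA, the CTCF core motif and the TATA box TATAAA had no match in these letters. Shares of promoters with these were 1.58, 0.0376, 9.35, 17.7, 0.320, 0.950, 1.98 and 11.6%, in the same order. The octamer without its first letter, TTTGCAT, looked for after the sequence had been seen, matched 1 time on the minus strand as ATGCAAA, and 3.86% of promoters held it. A match is a description of letters, not of binding, and a missing match concerns only this stretch.

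The 24 regions were placed unevenly around the gene, with most of them between the gene and a point 146 kb downstream. Distances are given from the Sox2 start along the direction of transcription, negative upstream. Counted by region centre, 8 regions with 2374 bp lay upstream of the start. Downstream lay 16 regions with 5663 bp (70.5% of the 8037 bp covered). The region that spans the start was counted whole as upstream. The 20 kb around the start and the interval of 100 to 120 kb downstream held 5 regions each. Together they made up 9.94% of the length of the window and held 10 of its 24 regions and 46.1% of its covered bp. The second was chosen with the control region known to lie about there. Coding genes of known direction averaged 1.56 regions in the first and 0.927 in the second, of 19.4 within 200 kb of the start. For those with no other coding gene in their window, the means were 1.18, 0.286 and 6.36.

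**Figure D1:**
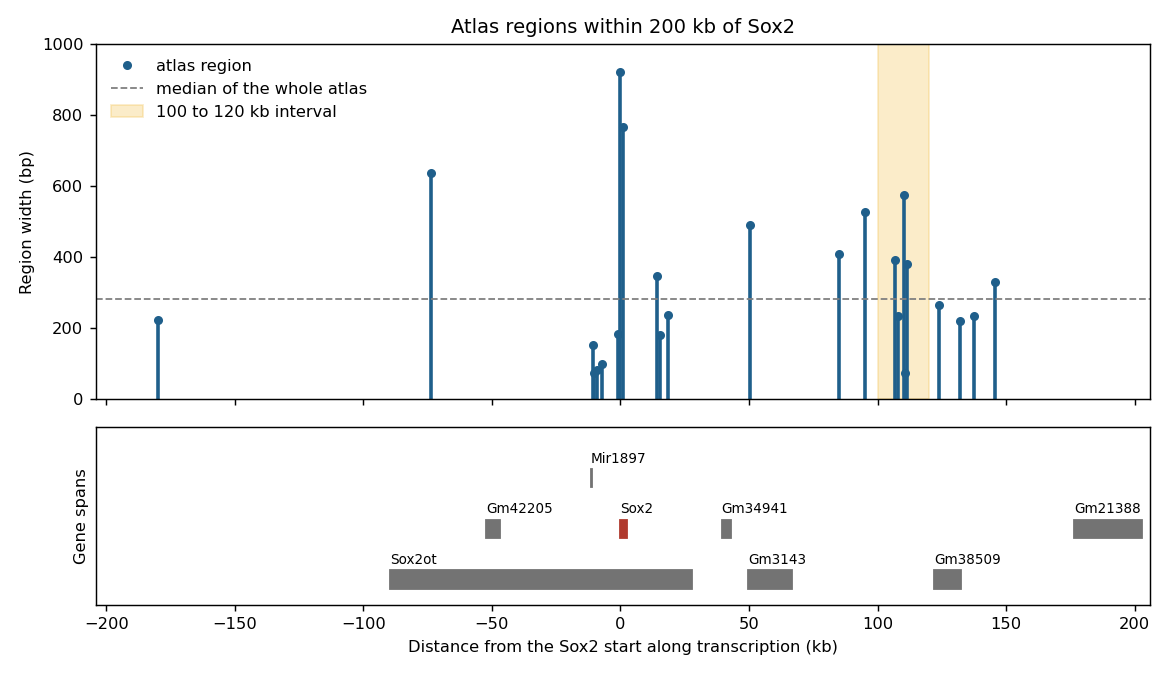
Width in bp of each of the 24 atlas regions (points) against the distance of its centre from the Sox2 start in kb, with the spans of annotated genes below and the interval of 100 to 120 kb shaded. The widest regions, of 920 and 767 bp, sit at the gene, and 5 regions fall in the shaded interval.

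The Sox2 start itself was spanned by the widest region, 920 bp at chr3:34649209-34650128, from -0.786 to 0.133 kb. Its width was in the upper part of the atlas, where 5.38% of regions were at least as wide. Most of this region lay before the start, and 134 bp of it fell within the gene. Among 21262 RefSeq promoters of coding genes, taken from 250 bp before to 50 bp after each start, 54.8% touched an atlas region and 30.5% lay wholly inside regions, as that of Sox2 did. The widest region at each touched promoter had a median width of 689 bp (quartiles 466 and 912 bp), and 24.3% of them were at least as wide as that at Sox2. The region at the Sox2 start was wide for the atlas and just above the upper quartile for a promoter.

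Inside the gene lay a region of 767 bp, chr3:34650454-34651220, separated by 325 bp from the region at the start. It fell wholly within the Sox2 span, chr3:34649995-34652461, from 0.459 to 1.23 kb. Of the 2467 bp of Sox2, 36.5% were covered by these 2 regions, against a median of 1.38% over all protein-coding genes. Short genes reach high shares more easily: of 5034 coding genes of at most 5 kb, 3.56% were covered at least to this extent, and 65.5% had no covered bp. A narrow region of 185 bp, chr3:34648834-34649018, lay 190 bp upstream of the region at the start.

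Farther upstream, 4 narrow regions of 154, 73, 83 and 100 bp lay between -10.7 and -7.20 kb. Their summed width was 410 bp in a stretch of 3477 bp. The first of them, chr3:34639315-34639468, lay 773 bp above the microRNA gene Mir1897. Even the widest of the 4 was equalled or exceeded in width by 74.6% of atlas regions, and the region of 73 bp had the smallest width in the atlas. Compared with the regions at the gene these were narrow calls, and their strength is not given in the file.

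No region lay in the 12890 bp after the region inside the gene, a stretch that takes in the far end of Sox2 and its nearest downstream flank. The classical enhancers SRR1 and SRR2 were not placed here, since none of the sources used gives their coordinates. Beyond this stretch, 3 regions of 347, 181 and 237 bp lay between 14.1 and 18.7 kb downstream, at chr3:34664111-34664457, chr3:34665313-34665493 and chr3:34668459-34668695. They were the last regions within the span of Sox2ot, and a gap of 31560 bp followed them.

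**Figure D2:**
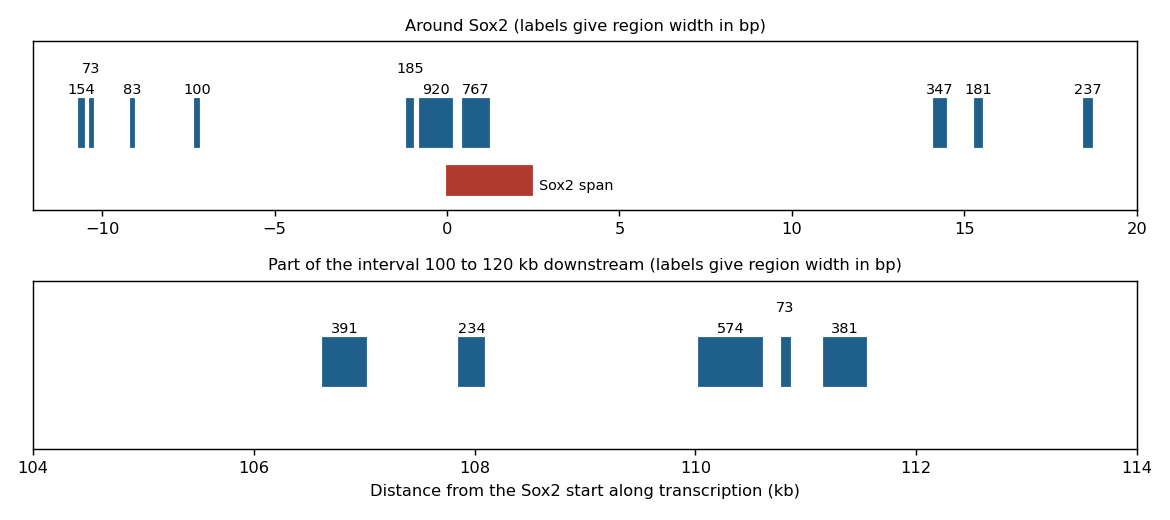
Regions drawn to scale by distance from the Sox2 start in kb, around the gene (above, with the Sox2 span) and within the interval of 100 to 120 kb downstream (below), each labelled with its width in bp. Narrow regions of 73 to 154 bp lie upstream of the gene, and 5 regions of 73 to 574 bp lie between 107 and 112 kb.

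The interval of 100 to 120 kb downstream, called the control interval below, held a tight cluster. It stands in for the Sox2 control region, whose published limits are not given in the sources used, so the regions in it were not matched to that element. Of the 5 regions, chr3:34756619-34757009 was 391 bp wide and chr3:34757851-34758084 was 234 bp wide, and they formed the part nearer to Sox2. After 1940 bp without a region came chr3:34760025-34760598 of 574 bp, chr3:34760776-34760848 of 73 bp and chr3:34761160-34761540 of 381 bp. The cluster thus had a nearer part of 2 regions and a farther part of 3 regions. It ran from 107 to 112 kb, and its regions covered 1653 bp, or 33.6% of its 4922 bp. The region of 574 bp was the widest, and 19.7% of atlas regions were at least as wide. The median width of the 5 was 381 bp, against 281 bp in the whole atlas.

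Runs of 5 or more regions were uncommon in the atlas as called. When regions less than 5 kb apart were joined into runs, a limit chosen after the positions had been seen, 52.6% of atlas regions stood alone. The 5 regions of the control interval formed 1 run, and runs of at least 5 regions held 4.94% of atlas regions in 586 runs. This size depends on calls that lay close together. With regions closer than 500 bp joined, the interval held 3 regions. Runs of at least 3, counted without such joining, held 21.2% of atlas regions. The narrow upstream regions made a run of 4, and runs of at least 4 held 9.80% of atlas regions. The regions at the gene and those after it made runs of 3 each. The remaining 9 regions stood alone. Of the 23 gaps within the window, 11 (47.8%) were under 5 kb, against 28.5% in the whole atlas, and the median gap was 5185 bp, against 13518 bp.

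At the same distance from other genes, so many regions were rare. The direction of transcription was known for 17491 coding genes, of which 290 (1.66%) had at least 5 regions 100 to 120 kb downstream of their start. The median was 1 region, and 49.2% had none. By covered bp, 2.68% reached the 1653 bp of Sox2. The interval lying as far upstream of Sox2, -120 to -100 kb, held no region, as at 49.2% of these genes. Because the interval was chosen with the control region known to lie about there, these shares describe the cluster and are no test of it. When regions closer than 500 bp were joined, Sox2 had 3 regions in the interval and 7.99% of coding genes had at least as many. Without regions of 73 bp it had 4, and the share was 3.97%.

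Single regions lay before and beyond the control interval. Between the span of Sox2ot and the interval lay chr3:34700256-34700746 of 491 bp, chr3:34734871-34735279 of 409 bp and chr3:34744947-34745474 of 528 bp, at 50.5, 85.1 and 95.2 kb. All 3 were wider than the atlas median of 281 bp. Past the interval, 4 regions of 265, 221, 235 and 329 bp lay at 124, 132, 137 and 146 kb, of which only the last was wider than the atlas median. No region lay between the last of them, chr3:34795453-34795781, and the end of the window.

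On the upstream side beyond -10.7 kb there were only 2 regions. The nearer, chr3:34575845-34576480, was 636 bp wide and lay within Sox2ot at -73.8 kb, and 16.1% of atlas regions were at least as wide. The farther, chr3:34470000-34470222, was 223 bp wide, lay at -180 kb and was outside every annotated gene. The gap between them, of 105622 bp, was the longest in the window.

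The other annotated genes in the window were non-coding. Sox2ot, a span of 118 kb from -89.6 to 28.0 kb, held 11 of the 24 regions, among them those at Sox2, and had no region within 1 kb of either of its outer ends. Overlapping spans do not tell which of Sox2 and Sox2ot a region belongs to. Of the other long non-coding RNA genes, Gm38509 held 2 regions (chr3:34773745-34774009 and chr3:34781809-34782029), the second 317 bp from its far end. Gm3143, transcribed from the minus strand, held 1, 616 bp from its far end. Gm42205, Gm34941 and Gm21388 held none. The cluster of the control interval touched no annotated gene.

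**Figure D3:**
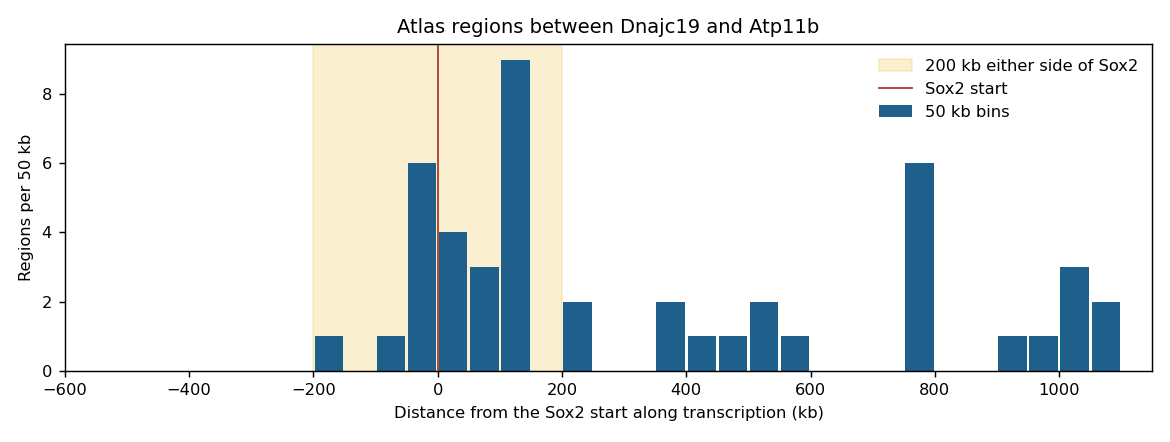
Number of atlas regions per 50 kb between the coding genes Dnajc19 and Atp11b, by distance from the Sox2 start in kb, with 200 kb on either side of Sox2 shaded. The highest bin, with 9 regions, lies 100 to 150 kb downstream, and no region lies below the shaded part.

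Sox2 is the only coding gene in a long stretch. The nearest coding genes were Dnajc19, which encodes a mitochondrial protein and ends 569 kb below Sox2, and Atp11b, which encodes a phospholipid flippase and begins 1102 kb above it. The 1673 kb between them held 46 regions, or 2.75 per 100 kb, close to the 2.84 per 100 kb of the whole atlas. The window around Sox2 held 24 of these at 5.96 per 100 kb. The 902 kb above the window held 22 regions at 2.44 per 100 kb, and the 369 kb below it held 0. From -100 to 150 kb there were 23 regions, or 9.20 per 100 kb. The regions of the window were thus gathered in its middle and on its downstream side. The limits of -100 and 150 kb were not planned beforehand and leave out nearly empty ends of the window, which raises the density. Above the window the next region lay at 235 kb, and below it none was listed down to Dnajc19.

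Among all protein-coding genes the number of regions around Sox2 lay near the middle. Of 21883 such genes, 8454 (38.6%) had at least 24 regions in a window built the same way, and the median was 20 (quartiles 12 and 28). By covered bp, 45.5% reached the 8037 bp of Sox2. Per 100 kb, 30.8% reached the 5.96 regions of Sox2, and the median was 4.44.

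Compared with coding genes alone in their window, a group not matched for activity in these cells, Sox2 stood high. There were 564 such genes, with a median of 7 regions (quartiles 2 and 12), and 30 of them (5.32%) had at least 24. Long genes have longer windows, and per 100 kb only 1.24% reached the 5.96 regions of Sox2, against a median of 1.30. Of the 427 lone genes with known direction, the 3 with at least 5 regions 100 to 120 kb downstream (0.703%) were Sox2 with 5, Grik3 with 6 and Zfp970 with 6. Grik3 encodes a kainate receptor subunit. By covered bp in the same interval, 0.937% reached the value of Sox2.

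**Figure D4:**
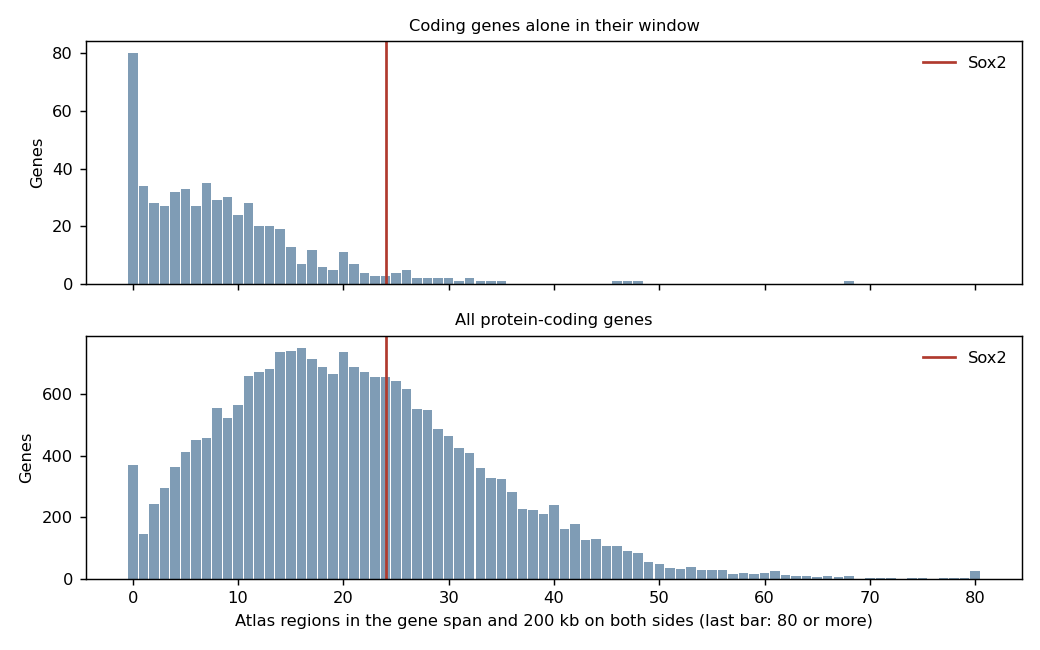
Number of coding genes (bars) by the number of atlas regions in their span and 200 kb on both sides, for coding genes alone in their window (above) and all coding genes (below), with Sox2 as a line at 24. Sox2 lies in the upper tail of the lone genes and near the middle of all coding genes.

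The place of Sox2 along the window depended on the genes it was set against. Within 10 kb of the start it had 5 regions, and 3.04% of lone genes and 3.29% of all coding genes had at least as many. From 10 to 50 kb it had 3 regions, reached by 7.49% of lone genes and by 30.0% of all. From 50 to 100 kb it again had 3, reached by 8.67% of lone genes and by 38.1% of all. From 120 to 200 kb it had 4, reached by 4.92% of lone genes and by 42.4% of all. From -200 to -100 kb its 1 region was equalled or exceeded by 58.8% of lone genes and by 89.4% of all coding genes, whose median there was 4. From -100 to -50 kb its 1 region was reached by 38.9% of lone genes and by 77.2% of all. From -50 to -10 kb it had 2, reached by 10.5% of lone genes and by 49.3% of all. Beyond 10 kb downstream, outside the interval of 100 to 120 kb, Sox2 thus stood high among lone genes only. Far upstream it was low among all coding genes. The excess of 8 downstream over upstream regions was reached by 3.04% of lone genes and 10.9% of all coding genes. It was not particular to Sox2 among the pluripotency loci compared below. Pou5f1 and Klf4 each had an excess of 11, and Nanog had 1.

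Covered bp were also compared over all distant bins. By construction, such shares cannot be below those of the interval of 100 to 120 kb alone. For each lone gene the most covered 20 kb bin farther than 20 kb from its start was found. That of Sox2 was the bin of 100 to 120 kb with 1653 bp, and it took place 18 of 427 (4.22% at or above it). The lone genes with the most covered bins were Gm52481 with 4851 bp, Gm52433 with 3034 bp and Zfp970 with 2753 bp. Next came Olfr1324 with 2634 bp and Pls3, which encodes the actin-bundling protein plastin 3, with 2427 bp. For Zfp970 and Pls3 this bin also lay 100 to 120 kb downstream. Gm52481 lies on the Y chromosome, and Gm52433, Olfr1324 and Pls3 lie on the X chromosome. Among all coding genes of known direction, 30.5% had a distant bin at least as covered as that of Sox2.

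The loci of 3 other pluripotency factors gave a measure of how the Sox2 layout differs. Sox2 had 24 regions with 8037 bp and no other coding gene in its window. Nanog, a homeodomain factor gene, had 53 regions with 18377 bp among 9 other coding genes. Pou5f1 had 42 regions with 12164 bp among 17 other coding genes. Klf4, a zinc finger factor gene, had 21 regions with 8271 bp and 1 other coding gene, and was nearest to Sox2 in these numbers. The median width of regions was 251 bp at Sox2, against 240 bp at Nanog, 214 bp at Pou5f1 and 306 bp at Klf4, all with quartiles that overlapped widely.

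In the interval of 100 to 120 kb downstream, Sox2 had 5 regions with 1653 bp, Nanog had 3 with 2131 bp, Pou5f1 had 1 with 354 bp and Klf4 had 0. The most covered distant bin at Sox2, that of 100 to 120 kb with 1653 bp, was below those of all 3 other loci. These were 2289 bp at -100 to -80 kb for Nanog, 1873 bp at 80 to 100 kb for Pou5f1 and 1769 bp at 40 to 60 kb for Klf4. Sox2 and Klf4 each had 16 regions downstream of their start within 200 kb, and 8 upstream at Sox2 against 5 at Klf4. Within the gene itself, 36.5% of the bp of Sox2 were covered, against 1.26% of Nanog, 9.44% of Pou5f1 and 9.68% of Klf4. The gene spans were 2467, 7145, 4746 and 5339 bp in the same order, and short genes reach high shares more easily. The region at the promoter was 920 bp wide at Sox2, 447 bp at Nanog, 141 bp at the only Pou5f1 promoter that had one, and 1019 bp at Klf4.

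**Figure D5:**
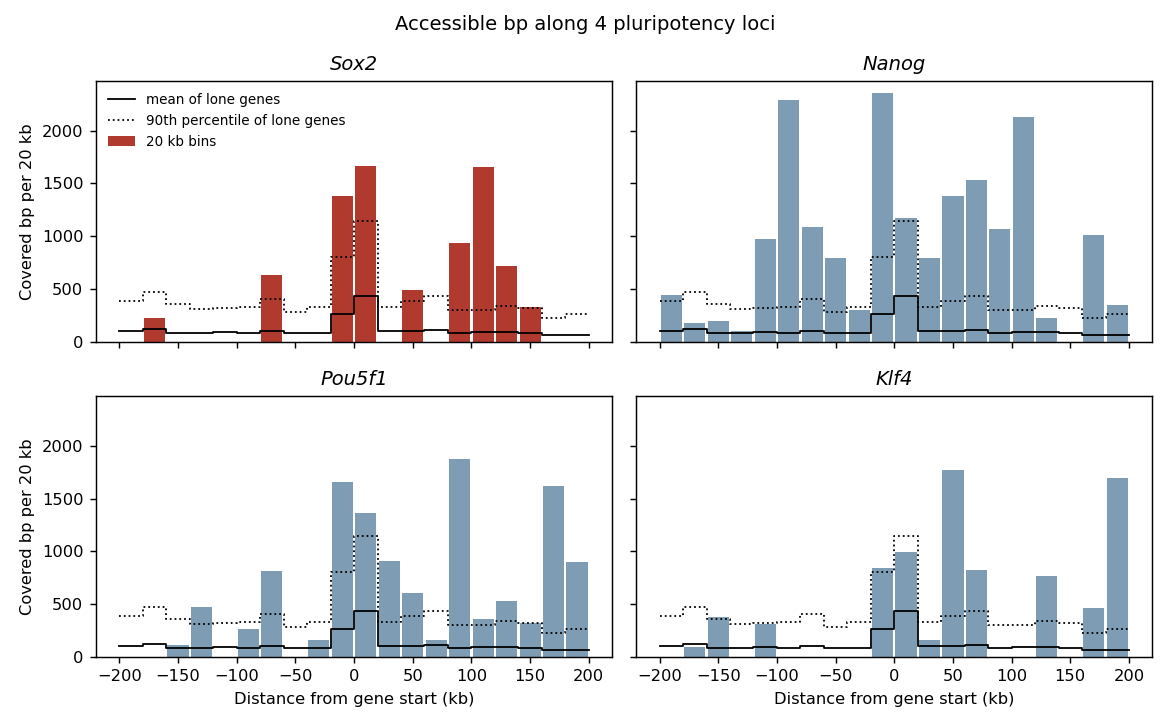
Covered bp in 20 kb bins by distance from the gene start in kb for Sox2, Nanog, Pou5f1 and Klf4 (bars), with the mean (line) and 90th percentile (dotted) of coding genes alone in their window. At Sox2 the bins from -20 to 20 kb and from 80 to 160 kb stand above the dotted line, as do those from -80 to -60 kb and from 40 to 60 kb, and the bins from -60 to -20 kb are empty.

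Over the whole window the widths of the 24 regions were like those of the atlas. The median at Sox2 was 251 bp, with quartiles of 184 and 430 bp. For all 76872 regions it was 281 bp, with quartiles of 152 and 498 bp. The 11 regions wider than the atlas median were 45.8% of the 24 and held 71.8% of the covered bp. Wider regions hold more bp each by construction, and the same share was not computed for the atlas. The 11 were the regions at the start and in the gene, the distant upstream region in Sox2ot and the first after the gene. The others were the 3 single regions before the control interval, 3 of the 5 within it and the last region of the window. The smallest width of 73 bp was found in 2 of 24 regions (8.33%), against 3.97% of the atlas.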

How the data were processed

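ATAC-seq was measured in 8 libraries of 4 groups, and the authors deposited 1 list of 76872 regions on 21 chromosomes, with chromosome, start and end in bp. MACS2 2.1.1, Bowtie2, cutadapt, SAMtools, Picard and bedtools, with the build GRCm38 (mm10), are listed per the submitters' processing notes. Their parameters, any Tn5 shift and the merging of libraries are not stated there, so a region open in any group may stand in the list, and depth is unknown. Positions are counted from 1. Gene spans, promoter sequences and strands came from RefSeq tables of GRCm38.p6. Of 21883 protein-coding genes on these chromosomes, 17491 had a strand there. Overlap needed 1 bp for windows, and segments were assigned by region centre. Lone genes had no other coding gene touching their window. Members and lists were chosen with earlier results of these data known. Named genes were Sox2, every gene touching its window, the nearest coding genes, Nanog, Pou5f1, Klf4 and the 5 lone genes with the most covered distant bins; Grik3 was named after its values were seen. Overlap code was tested on simulated data, with 0 disagreements in 2000 intervals. Python 3.11.15, numpy 2.4.6, pandas 2.3.3 and matplotlib 3.10.9 were used.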

Additional observations from a re-analysis of the deposited data

How the results depend on the processing

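No paired analysis was possible because the list holds no value per library, and replicates could not be left out for the same reason. Of 40 alternatives, 31 stayed within 1.5 times the reported value. With 100 kb on both sides of Sox2 the window held 14 regions and 5111 bp, being smaller by construction. With regions closer than 500 bp joined, the control interval held 3 regions. The share of genes with at least 24 regions was 5.32% among lone genes. The share with at least as many regions as Sox2 in the interval was 0.703% among lone genes, 3.97% without regions of 73 bp, 7.99% with regions joined and 3.09% for 90 to 130 kb. The share with as covered a distant bin was 4.22% among lone genes. Alternatives for these last shares, and counts per 100 kb or from the gene start, were chosen after seeing the data; the cause of each move was not tested. Depth is unknown, so a missing region may be a region below the calling threshold.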

Other observations

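Farther than the window, the stretch between Sox2 and Atp11b held 22 regions. These positions were chosen for description after they had been seen. The widest was 1013 bp at chr3:35130326-35131338, 481 kb downstream of the Sox2 start, and exceeded the 920 bp of the widest region at Sox2. A group of 6 regions with 1904 bp lay between 750 and 800 kb, the widest of them 779 bp at chr3:35418202-35418980. No coding gene lies there, and the file does not say which gene, if any, these regions act on.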
